A study of Homo sapiens with 12 samples.

Results

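Regions of chromosomes 6, 13 and 19 that carried clear histone acetylation were followed library by library in leukaemia cells given WM-1119 or its solvent, and set against regions of like strength on 18 other autosomes. Members were selected on their position and their mean level: a region counted when it lay on chromosome 6, 13 or 19 and averaged at least 10 CPM over 6 libraries. CPM is the number of reads in a region scaled to a total of 1000000 over all listed regions. This gave 2390 of the 47648 regions in the table: 927 on chromosome 6, 342 on chromosome 13 and 1121 on chromosome 19. The comparison set held 10774 regions past the same minimum on chromosomes 1 to 5, 7, 9 to 12, 14 to 18 and 20 to 22. The 3 chromosomes had been chosen because an earlier look at these files showed a raised low signal there, so that level is given as a description.

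The samples were chromatin immunoprecipitates of acetylated lysine 9 of histone H3 (H3K9ac) from MOLM-13, a line grown from a patient with acute myeloid leukaemia and carrying a KMT2A-MLLT3 fusion. There were 3 libraries of cells treated with WM-1119, an inhibitor of the lysine acetyltransferase KAT6A, at 4 µM for 4 days, and 3 libraries of cells labelled DMSO. Every library came from the same line. Nothing in the labels ties a replicate to a culture of its own, so p-values rest on a spread between libraries that may be technical. The 6 input libraries were not analysed here.

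H3K9ac is laid down by acetyltransferases at active promoters and enhancers, where it helps to keep chromatin open and recruits proteins that read acetyl groups. In an immunoprecipitate, some DNA is carried along without the mark and gives a low, widespread signal that follows the amount of DNA from each chromosome. A chromosome present in extra copies therefore adds to both the low signal and the total at marked sites. MOLM-13 is known as a hyperdiploid line whose extra chromosomes include 8 and 13. Copy number was not measured in the files used here, and its part in the levels below was not tested.

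The libraries differed in depth, with 4542322, 9996190 and 12705349 reads in regions for WM-1119 replicates 1, 2 and 3, and 719329, 1298443 and 7481097 for DMSO replicates 1, 2 and 3. The depth of WM-1119 replicate 2 is less certain, since its value per read lies near a round number. A single read was worth between 0.0787 CPM in WM-1119 replicate 3 and 1.39 CPM in DMSO replicate 1. DMSO replicates 1 and 2 were the shallowest libraries and also had the highest low signal, while DMSO replicate 3 lay with the WM-1119 libraries. Of 10 myeloid marker genes, among them HOXA9, MEIS1, SPI1 and CEBPA, 8 had an end region of at least 10 CPM, against 2 of 10 lymphoid and erythroid genes (CD79A and EPOR). The myeloid genes CD33 and KIT fell short, at 3.67 and 5.75 CPM.

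The promoters below belong to the strongest member of each chromosome and to 3 genes in which an internal region fell with WM-1119, so that the marked start and the region that moved can be told apart in what follows. They run 5′ to 3′ on the gene's strand from 250 bases before to 50 bases after the annotated start, and come from RefSeq on GRCh38.p14. Capitals mark GC boxes (GGGCGG, or CCGCCC for the other strand), sites of the kind that Sp1 and KLF proteins bind.
PHIP, chr6:79078205-79078504, minus strand: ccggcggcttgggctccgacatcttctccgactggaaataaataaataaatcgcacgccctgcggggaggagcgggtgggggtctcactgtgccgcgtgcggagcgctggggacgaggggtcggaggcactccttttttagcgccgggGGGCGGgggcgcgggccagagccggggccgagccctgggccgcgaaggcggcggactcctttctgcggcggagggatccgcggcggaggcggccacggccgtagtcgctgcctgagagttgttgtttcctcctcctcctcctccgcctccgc
DACH1, chr13:71867155-71867454, minus strand: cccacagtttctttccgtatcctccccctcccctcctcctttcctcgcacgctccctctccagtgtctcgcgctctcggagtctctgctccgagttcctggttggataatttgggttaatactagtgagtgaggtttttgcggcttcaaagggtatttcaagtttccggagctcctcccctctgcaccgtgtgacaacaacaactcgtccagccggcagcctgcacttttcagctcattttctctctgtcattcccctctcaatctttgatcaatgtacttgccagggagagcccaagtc
KLF16, chr19:1863530-1863829, minus strand: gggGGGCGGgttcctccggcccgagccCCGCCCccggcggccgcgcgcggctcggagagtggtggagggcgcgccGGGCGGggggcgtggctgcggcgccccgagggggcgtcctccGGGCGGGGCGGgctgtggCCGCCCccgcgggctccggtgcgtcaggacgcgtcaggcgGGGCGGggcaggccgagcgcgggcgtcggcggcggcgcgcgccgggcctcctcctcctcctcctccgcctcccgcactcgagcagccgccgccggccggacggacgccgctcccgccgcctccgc
PHF10, chr6:169724451-169724750, minus strand: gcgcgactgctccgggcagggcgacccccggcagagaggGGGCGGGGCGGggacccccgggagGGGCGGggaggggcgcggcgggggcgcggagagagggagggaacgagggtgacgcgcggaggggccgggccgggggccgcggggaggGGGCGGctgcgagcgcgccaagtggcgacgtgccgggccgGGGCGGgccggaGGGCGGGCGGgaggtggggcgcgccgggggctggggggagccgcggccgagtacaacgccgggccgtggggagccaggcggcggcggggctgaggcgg
ELF1, chr13:41061337-41061636, minus strand: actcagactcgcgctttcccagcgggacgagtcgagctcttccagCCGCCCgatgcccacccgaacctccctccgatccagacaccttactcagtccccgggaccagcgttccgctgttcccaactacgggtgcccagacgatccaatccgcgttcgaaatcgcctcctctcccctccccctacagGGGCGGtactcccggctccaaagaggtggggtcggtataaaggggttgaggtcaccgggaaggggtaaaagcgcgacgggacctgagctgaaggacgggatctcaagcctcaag
RNASEH2B, chr13:50909428-50909727, plus strand: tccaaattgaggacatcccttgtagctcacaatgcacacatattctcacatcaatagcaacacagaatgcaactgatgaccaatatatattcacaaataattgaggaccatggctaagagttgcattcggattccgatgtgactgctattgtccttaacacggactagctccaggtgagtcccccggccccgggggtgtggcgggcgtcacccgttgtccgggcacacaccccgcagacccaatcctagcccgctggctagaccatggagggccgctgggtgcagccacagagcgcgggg
KLF16 and PHF10 held 7 GC boxes each, with overlapping matches counted, ELF1 held 2, PHIP held 1, and DACH1 and RNASEH2B held 0. A GC box on either strand was present in 71.5% of the 681 promoters that start in members of chromosome 6, 68.6% of the 229 on chromosome 13 and 77.5% of the 839 on chromosome 19. The share was 74.0% in comparison regions and 56.3% over all 22199 promoters in the RefSeq set. The median GC content was 64.0%, 67.7% and 65.7% for chromosomes 6, 13 and 19, against 66.7% in comparison regions. A match is a description of the letters and says nothing about which factor is bound.

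The low signal was raised on all 3 chromosomes in every library, and most in DMSO replicates 1 and 2. It was read as the 10th percentile of CPM per kb among table regions wider than 500 and at most 1200 bp. On chromosome 6 it was 5.73, 5.08 and 4.44 CPM per kb in WM-1119 replicates 1, 2 and 3, against 12.2, 10.8 and 3.91 in DMSO replicates 1, 2 and 3. On chromosome 13 the WM-1119 libraries had 5.87, 4.78 and 4.56 CPM per kb, against 12.6, 11.2 and 4.30 in the DMSO libraries. On chromosome 19 it was 5.26, 4.73 and 4.06 CPM per kb with WM-1119 and 10.6, 10.2 and 3.81 with DMSO. The same 2 DMSO libraries stood high on each chromosome, and the groups overlapped because DMSO replicate 3 was the lowest of all 6. The comparison chromosomes showed that split too, with 4.23, 4.03 and 3.58 CPM per kb in the WM-1119 libraries and 7.79, 7.20 and 3.20 in the DMSO libraries.

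Divided by the comparison chromosomes of the same library, the low signal of chromosome 13 was 1.39, 1.18 and 1.27 in WM-1119 replicates 1, 2 and 3, and 1.61, 1.55 and 1.35 in DMSO replicates 1, 2 and 3. Chromosome 6 followed closely, with ratios of 1.35, 1.26 and 1.24 in the WM-1119 libraries and 1.57, 1.50 and 1.22 in the DMSO libraries. Chromosome 19 was lower, at 1.24, 1.17 and 1.13 with WM-1119 and 1.37, 1.41 and 1.19 with DMSO. Chromosome 8 ranked first of the 22 autosomes in each library, with ratios of 1.48 to 1.96 in WM-1119 libraries and 1.64 to 2.63 in DMSO libraries. Chromosomes 13 and 6 took the next places, and chromosome 19 was the fourth in all 6 libraries. No comparison chromosome reached chromosome 19 in any library: the 18 ran from 0.878 to 1.15 over all libraries. The raised signal ran along the chromosomes. In windows of 20 Mb the ratio of chromosome 6 was above 1 in 8 of 8 windows in 4 libraries and in 7 of 8 in WM-1119 replicate 2 and DMSO replicate 3. It was above 1 in 4 of 4 windows of chromosome 13, and in 5 of 5 windows of 10 Mb on chromosome 19, in every library.

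**Figure D1:**
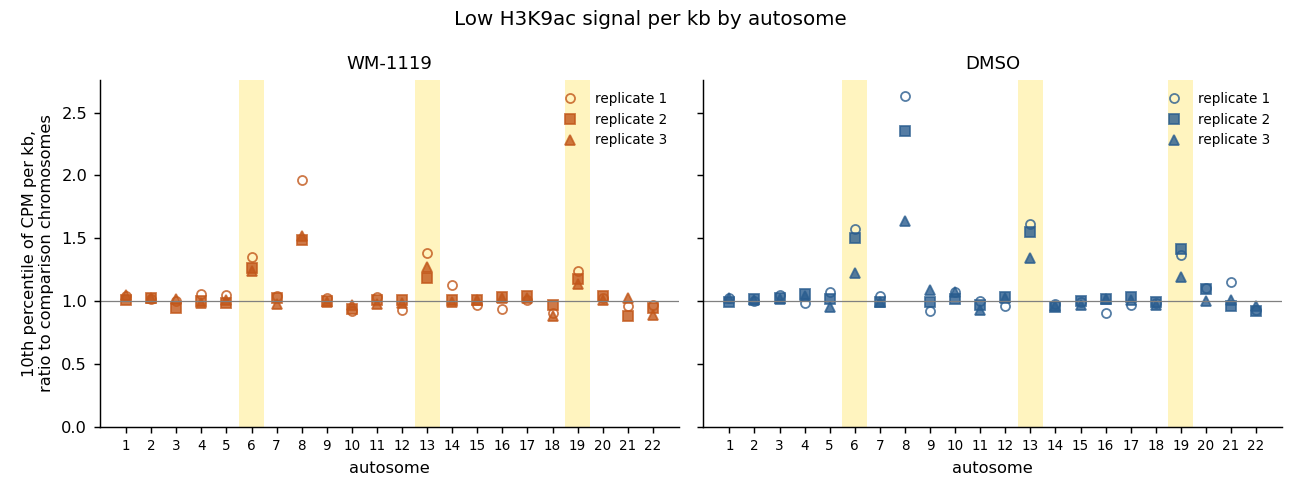
Low H3K9ac signal (10th percentile of CPM per kb among regions wider than 500 and at most 1200 bp) on each autosome as a ratio to the comparison chromosomes of the same library, WM-1119 left and DMSO right, 1 point per library. Chromosomes 6, 13 and 19 (shaded) lie above 1 in all 6 libraries, between 1.13 and 1.61, below chromosome 8 and above the other autosomes.

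At coding gene ends of at least 10 CPM, chromosomes 6 and 13 stood above every comparison chromosome in all 6 libraries, and chromosome 19 did so in 1. These ends are regions within 1 kb of either annotated end of a coding gene. The median on chromosome 13 was 95.3, 95.2 and 98.2 CPM in WM-1119 replicates 1, 2 and 3, and 83.4, 87.0 and 97.0 CPM in DMSO replicates 1, 2 and 3. Chromosome 6 had 81.0, 78.9 and 81.0 CPM with WM-1119, and 72.3, 72.0 and 78.5 CPM with DMSO. The comparison chromosomes had 60.8, 61.0 and 61.5 CPM in the WM-1119 libraries and 51.4, 54.7 and 60.2 CPM in the DMSO libraries. As ratios to the comparison chromosomes, the 173 end regions of chromosome 13 gave 1.56 to 1.62 and the 530 of chromosome 6 gave 1.29 to 1.41 over the 6 libraries, and both groups of libraries lay within those narrow ranges. Chromosome 13 ranked second and chromosome 6 the third of 22 autosomes in every library, behind chromosome 8 at 2.20 to 2.36. The 729 end regions of chromosome 19 gave 1.04, 1.05 and 1.02 in WM-1119 libraries and 1.16, 1.17 and 1.11 in DMSO libraries. In 5 libraries that was within the span of the comparison chromosomes, and in DMSO replicate 2 its 1.17 lay just above their highest ratio of 1.15 on chromosome 18.

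Chromosome 19 carries clusters of KRAB zinc finger genes, and the median of the mean CPM was 37.2 at its 110 ZNF end members, against 64.0 at all its end members. Without ends of ZNF genes on any chromosome, its 619 remaining end regions stood at 1.17 to 1.27 times the comparison chromosomes, with a rank of 4 or 5 among 22 autosomes, while chromosomes 6 and 13 kept their places. Among ends averaging at least 50 CPM the ratios were 1.25 to 1.34 on chromosome 6, 1.30 to 1.40 on chromosome 13 and 1.18 to 1.28 on chromosome 19, with ranks of 3, 2 and 4 in all 6 libraries. When no minimum was set, chromosome 19 stood at 0.637 to 0.900, among the 3 lowest autosomes, and chromosome 13 stood at 1.96 to 2.06. Chromosome 6 then stood at 1.28 to 1.40 with a rank of 3 to 5. In the WM-1119 libraries it lay below chromosome 18, a comparison chromosome, so its place above all of them depended on the minimum. Position mattered on chromosome 19 as well: in windows of 10 Mb the end ratio was 1.29 to 1.41 over the first 10 Mb and 0.608 to 0.811 between 50 and 60 Mb. On chromosome 6 it was above 1 in 8 of 8 windows, and on chromosome 13 in 3 of 3 windows with at least 20 ends, in all 6 libraries. Regions away from coding gene ends kept no such order over the libraries, with ratios of 0.946 to 1.21 on chromosome 6, 0.711 to 1.05 on chromosome 13 and 0.962 to 1.03 on chromosome 19. In DMSO replicates 1 and 2 chromosome 8 was highest there (1.37 and 1.27). Chromosome 6 came next (1.21, level with chromosome 5, and 1.13), and chromosome 13 had 1.05 and 1.03. In the WM-1119 libraries and DMSO replicate 3, chromosomes 8 and 13 ranked between 15 and 22. All end ratios were computed after the values had been seen.

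**Figure D2:**
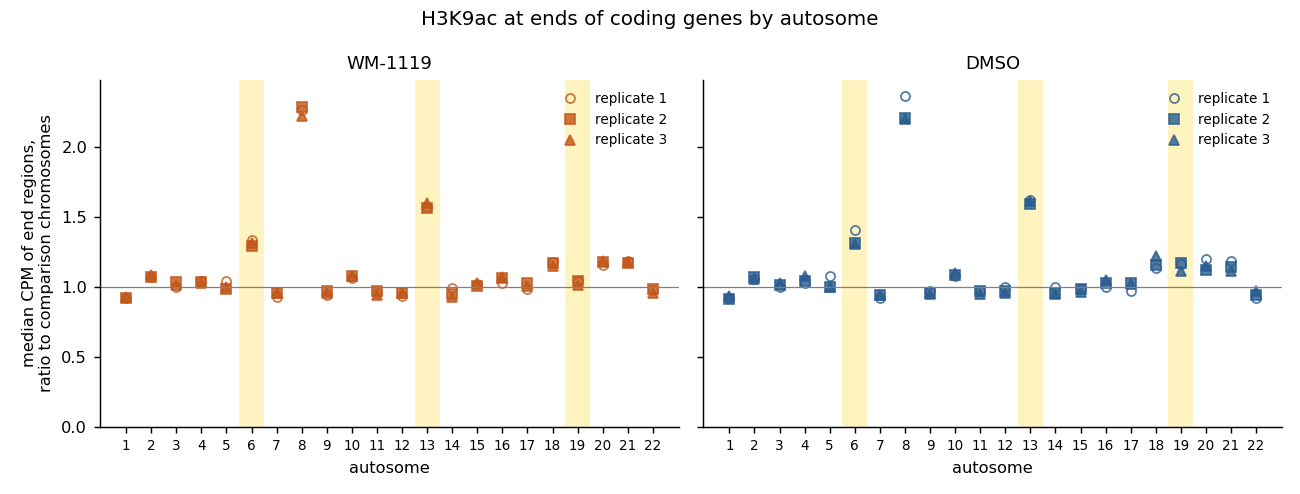
Median CPM of regions at ends of coding genes averaging 10 CPM or more on each autosome, as a ratio to the comparison chromosomes of the same library, WM-1119 left and DMSO right, 1 point per library. Chromosome 13 (1.56 to 1.62) and chromosome 6 (1.29 to 1.41) stand above the comparison chromosomes in all 6 libraries, and chromosome 19 (1.02 to 1.17) lies among them in 5 libraries and just above them in DMSO replicate 2.

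Members were strong more often than comparison regions. A mean of at least 100 CPM was found in 231 of 927 members on chromosome 6 (24.9%), 96 of 342 on chromosome 13 (28.1%) and 240 of 1121 on chromosome 19 (21.4%), against 1690 of 10774 comparison regions (15.7%). Weak members were common too, so that the median of the mean CPM was 46.4, 45.6 and 41.7 CPM on chromosomes 6, 13 and 19, against 44.9 CPM in the comparison set. Fewer members lay at a coding gene end (57.2%, 50.6% and 65.0%, against 67.5%) and more lay inside genes away from the ends (30.0%, 40.1% and 27.1%, against 25.6%). The mean that defines a member includes the low signal.

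Relative to comparison regions of the same strength, members of all 3 chromosomes sat low in the WM-1119 libraries and high in DMSO replicates 1 and 2. For this the log2(CPM + 1) of each member was taken relative to its own mean over the 6 libraries, and the same quantity in comparison regions of the same mean CPM was subtracted. This matched level was -0.04, -0.09 and -0.12 on chromosome 6 in WM-1119 replicates 1, 2 and 3, against 0.20, 0.13 and -0.08 in DMSO replicates 1, 2 and 3. On chromosome 13 it was -0.02, -0.11 and -0.12 in the WM-1119 libraries and 0.20, 0.13 and -0.09 in the DMSO libraries. On both chromosomes DMSO replicate 3 lay among the WM-1119 libraries, so the groups overlapped. On chromosome 19 it was -0.06, -0.04 and -0.07 with WM-1119 and 0.08, 0.09 and -0.02 with DMSO, and the groups did not overlap. The comparison chromosomes, read singly in the same way, stayed between -0.06 and 0.11 over all libraries.

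The group means of the matched level were -0.08 ± 0.04 with WM-1119 and 0.08 ± 0.14 with DMSO on chromosome 6 (SD, n = 3 each), a difference of -0.17 on the log2 scale. On chromosome 13 they were -0.08 ± 0.05 with WM-1119 and 0.08 ± 0.15 with DMSO (difference -0.16), and on chromosome 19 -0.06 ± 0.01 with WM-1119 and 0.05 ± 0.06 with DMSO (difference -0.11). The SD of the DMSO libraries was smaller than the differences on chromosomes 6 and 13, but close to them in size. Taken within pairs of the same replicate number, the difference was -0.24, -0.22 and -0.04 on chromosome 6 for pairs 1, 2 and 3, -0.22, -0.24 and -0.02 on chromosome 13 and -0.15, -0.13 and -0.05 on chromosome 19. WM-1119 was lower in 3 of 3 pairs on each chromosome, and pair 3 differed least. With DMSO replicates 1 and 2 left out, the differences became -0.01, 0.02 and -0.04. After each library's low signal had been subtracted they were -0.08, 0.00 and -0.06, with no overlap between the groups on chromosomes 6 and 19, though on chromosome 19 they came within rounding of each other. The difference between groups moved with the low signal and with the 2 shallow DMSO libraries, and their part in it was not tested beyond these values. For comparison, chromosome 8 gave a difference of -0.33, with DMSO replicate 3 again among the WM-1119 libraries.

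**Figure D3:**
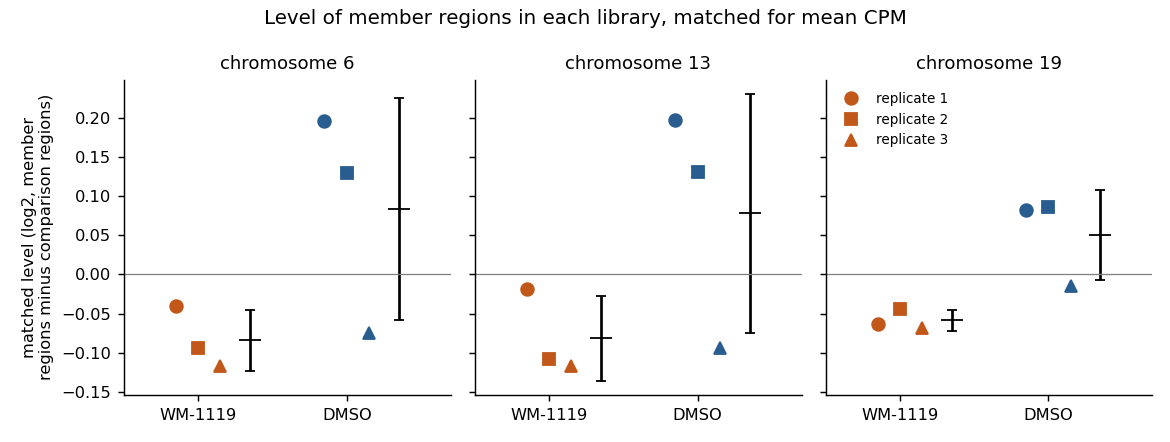
Matched level of members (log2, members minus comparison regions of the same mean CPM) in each library by chromosome, WM-1119 left of DMSO, with the mean and SD of 3 libraries beside the points. DMSO replicates 1 and 2 lie above 0 on all 3 chromosomes, while DMSO replicate 3 and the WM-1119 libraries lie below 0.

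As a share of each library's signal the members differed little between groups. Of all CPM in regions of at least 10 CPM, members of chromosome 6 held 7.53%, 7.51% and 7.54% in WM-1119 replicates 1, 2 and 3, against 7.90%, 7.87% and 7.69% in DMSO replicates 1, 2 and 3. Members of chromosome 19 held 8.13%, 8.36% and 8.22% in the WM-1119 libraries and 8.49%, 8.51% and 8.36% in the DMSO libraries. The groups did not overlap on chromosome 6 and met within rounding on chromosome 19. Members of chromosome 13 held 3.03%, 2.87% and 2.94% with WM-1119 and 3.07%, 2.96% and 2.96% with DMSO, where the groups overlapped. Within pairs 1, 2 and 3 of chromosome 13 the share differed by -0.04, -0.09 and -0.02 percentage points, lower with WM-1119 in 3 of 3 pairs. The largest of the 3 differences between the group means was -0.29 percentage points, on chromosome 6, while chromosome 8 differed by -0.45.

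The gap between members and comparison regions was smaller at 100 CPM and over than in the classes below 50 CPM on all 3 chromosomes. Among members averaging 10 to 20 CPM, the median log2 change (WM-1119 over DMSO) was -0.56 on chromosome 6, -0.64 on chromosome 13 and -0.44 on chromosome 19, against -0.36 in comparison regions. Among those of 20 to 50 CPM it was -0.24, -0.21 and -0.16, against 0.03. At 100 CPM and over it was 0.18, 0.22 and 0.20, against 0.25. In that strongest class the library that departed most from comparison regions was DMSO replicate 1 on chromosome 13, by 0.07 on the log2 scale. In the weakest class DMSO replicate 1 departed by 0.31 on chromosome 6 and 0.29 on chromosome 13, but by only 0.07 on chromosome 19. At 20 to 50 CPM it departed by 0.28, 0.33 and 0.14 on chromosomes 6, 13 and 19. Over all members the median change was -0.05, -0.01 and -0.05 on chromosomes 6, 13 and 19, against 0.09 in comparison regions and -0.47 over all tested regions. The sign of such medians depends on the scaling: centring each library on its median gave a median of 0.30 over all regions in place of -0.47 and turned the 3 chromosome medians positive, whereas the gap between members and comparison regions stayed at -0.13, -0.10 and -0.13. Without members below 20 CPM the difference in matched level was -0.15, -0.10 and -0.11 on chromosomes 6, 13 and 19. At coding gene ends it was -0.09, -0.07 and -0.13, and away from them -0.20, -0.19 and -0.06, so chromosome 19 showed the other order.

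**Figure D4:**
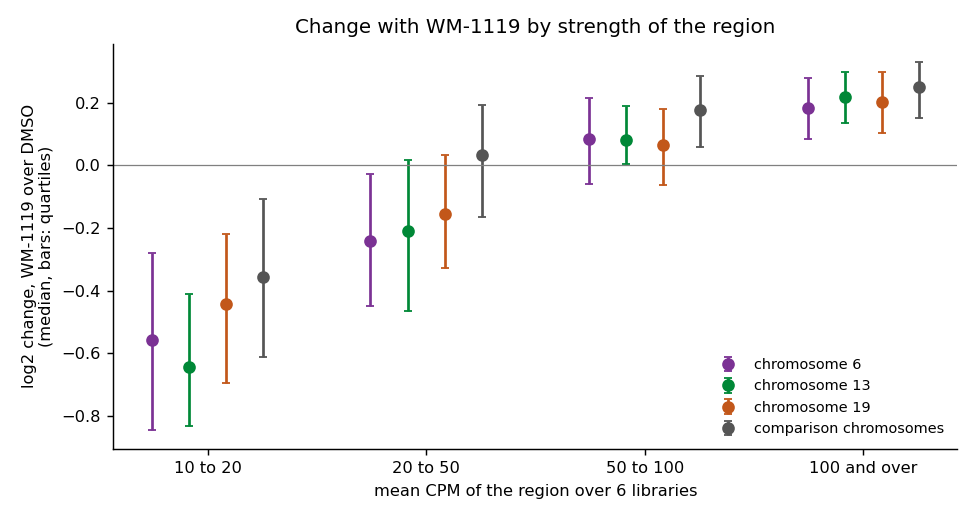
Log2 change of H3K9ac, WM-1119 over DMSO, in 4 classes of mean CPM for members of chromosomes 6, 13 and 19 and for comparison regions; points are medians and bars run between quartiles. Members lie below comparison regions in each class, by the most at 20 to 50 CPM on chromosomes 6 and 19 (-0.24 and -0.16 against 0.03) and at 10 to 20 CPM on chromosome 13 (-0.64 against -0.36).

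H3K9ac fell in 8 members with WM-1119, 5 on chromosome 6, 2 on chromosome 13 and 1 on chromosome 19, and in 0 members did it rise. In bulk chromatin, fewer marked cells and less mark per cell cannot be told apart, and CPM shows no change of the total. The test was limma on log2(CPM + 1) over all 44763 regions averaging at least 1 CPM, with a Benjamini-Hochberg adjusted p under 0.05. Of all tested regions 0.0603% fell and 0% rose, and of comparison regions of at least 10 CPM 0.0928% fell. The members' shares of 0.539%, 0.585% and 0.0892% for chromosomes 6, 13 and 19 thus lay above both on chromosomes 6 and 13 and beside them on chromosome 19. The shares of chromosomes 6 and 13 rest on only 5 and 2 regions. A higher share was not particular to them, since 9 of 786 regions of at least 10 CPM fell on chromosome 8 (1.15%). With the replicate number as a block the count was 88, of which 75 were lower and 13 higher, and all 8 remained; these are 3.68% of members, against 1.92% of comparison regions and 1.11% of all tested regions. None of the 8 passed with quantile normalization, with median centring, when only regions of at least 10 CPM were tested, with limma without trend and robust, or with edgeR on 5 libraries. Without that adjustment, at p under 0.05, 153 members of chromosome 6 were lower and 54 higher, 57 and 29 on chromosome 13, and 111 and 56 on chromosome 19. Those are 16.5%, 16.7% and 9.90% lower, against 6.46% of comparison regions and 10.8% of all tested regions, and 5.83%, 8.48% and 4.996% higher, against 8.49% and 2.58%. Counted instead by groups that did not overlap, 129 members of chromosome 6 were lower and 94 higher, 40 and 31 on chromosome 13, and 120 and 61 on chromosome 19. The lower shares were 13.9%, 11.7% and 10.7%, against 7.80% of comparison regions and 13.2% of all tested regions, and the higher ones 10.1%, 9.06% and 5.44%, against 12.2% and 3.76%. Of the members lower at an unadjusted limma p under 0.05, 90, 40 and 70 averaged 10 to 20 CPM on chromosomes 6, 13 and 19. Weak regions could reach the minimum of 10 CPM through the DMSO libraries, so both kinds of lower count are a description only.

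All 8 lay away from the start of the gene they sit in. On chromosome 6 the region with the smallest p was inside PHF10 (chr6:169708599-169712390), a gene for a subunit of the PBAF form of the SWI/SNF remodeller. It had 20.9, 26.4 and 27.9 CPM in WM-1119 replicates 1, 2 and 3, against 76.5, 79.3 and 35.7 CPM in DMSO replicates 1, 2 and 3. The groups did not overlap, with DMSO replicate 3 nearest to the WM-1119 libraries. This came to a log2 change of -1.24 with an SE of 0.23 (limma adjusted p = 0.00664). Its neighbour (chr6:169706842-169708492), within 1 kb of an end of C6orf120 and also in the body of PHF10, had 9.69, 14.8 and 14.1 CPM with WM-1119 and 51.4, 43.1 and 22.3 CPM with DMSO (log2 change -1.47, SE 0.28, limma adjusted p = 0.00664). The 2 regions lie next to each other and are not separate observations of the gene.

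CDKAL1 encodes a methylthiotransferase that modifies a lysine tRNA. The region inside it (chr6:20563757-20566158) had 26.9, 18.8 and 27.6 CPM in the WM-1119 libraries and 65.3, 55.5 and 45.6 CPM in the DMSO libraries (log2 change -1.16, SE 0.22, limma adjusted p = 0.00664). SENP6 encodes a SUMO protease, and the region inside it (chr6:75622540-75624098) had 21.4, 12.6 and 17.2 CPM with WM-1119 against 54.2, 35.4 and 36.2 CPM with DMSO (log2 change -1.25, SE 0.25, limma adjusted p = 0.0114). RREB1 encodes a zinc finger factor that binds Ras-responsive elements. The region inside it (chr6:7136306-7139200) had 41.4, 24.5 and 22.98 CPM with WM-1119 against 82.0, 59.3 and 47.2 CPM with DMSO (log2 change -1.07, SE 0.22, limma adjusted p = 0.0150). In each of these 3 regions every WM-1119 library was below every DMSO library, and in RREB1 the groups came closest.

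On chromosome 13 the strongest of the 8 lay inside ELF1 (chr13:41003017-41009202), which encodes an ETS family factor of blood cells. It had 75.7, 64.1 and 72.3 CPM in WM-1119 replicates 1, 2 and 3, against 143, 121 and 117 CPM in DMSO replicates 1, 2 and 3 (log2 change -0.83, SE 0.17, limma adjusted p = 0.0147). Here DMSO replicate 3 lay beside DMSO replicate 2, well above the WM-1119 libraries. RNASEH2B encodes a subunit of ribonuclease H2, which removes ribonucleotides from DNA. The region just inside it (chr13:50915040-50917957) had 23.1, 18.3 and 23.3 CPM with WM-1119 and 65.3, 53.1 and 34.2 CPM with DMSO (log2 change -1.16, SE 0.23, limma adjusted p = 0.0114). On chromosome 19 the region in the non-coding gene LINC01837 (chr19:32063584-32064562) had 4.40, 2.20 and 3.38 CPM with WM-1119 and 23.6, 14.6 and 15.1 CPM with DMSO (log2 change -2.12, SE 0.44, limma adjusted p = 0.0164). It was the only one of the 8 with an average below 20 CPM, at 10.6 CPM. It averaged 3.33 CPM with WM-1119 and 17.8 CPM with DMSO, so it reached the minimum for members through the DMSO libraries alone and its lower value counts as no support for chromosome 19, which had no other call.

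**Figure D5:**
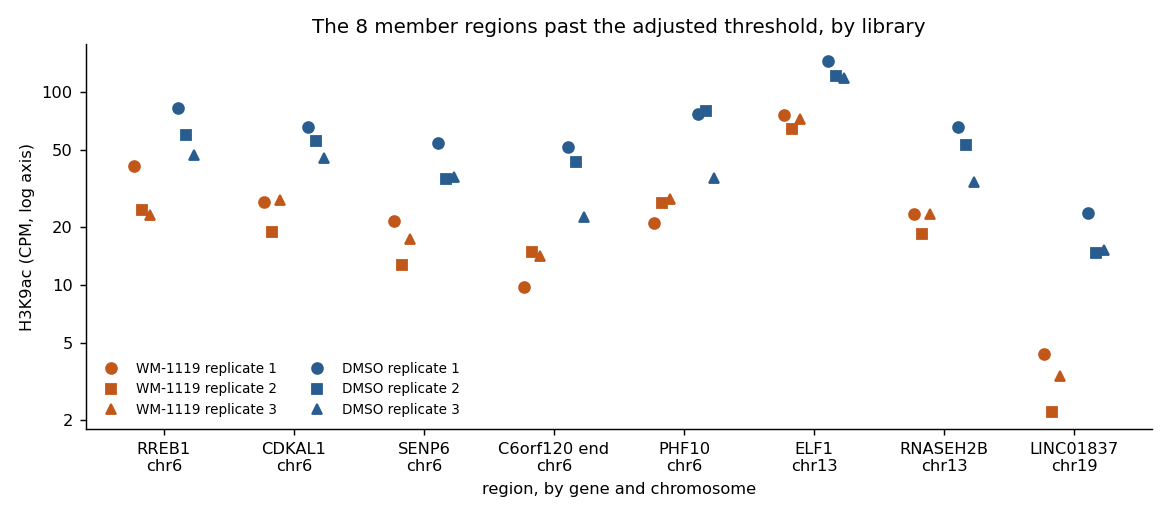
H3K9ac (CPM, log axis) in each library for the 8 members past the adjusted threshold, WM-1119 libraries left of DMSO libraries for each region. All 3 WM-1119 libraries lie below all 3 DMSO libraries in each region, and DMSO replicate 3 is the lowest DMSO library in PHF10, C6orf120, RNASEH2B, RREB1, CDKAL1 and ELF1.

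The starts of the same genes, shown by the promoter sequences above for PHF10, ELF1 and RNASEH2B, did not pass the test. The end region of PHF10 averaged 484 ± 132 CPM with WM-1119 and 472 ± 155 CPM with DMSO (SD, n = 3 each), that of ELF1 339 ± 17.99 CPM with WM-1119 and 299 ± 56.5 CPM with DMSO, and that of RNASEH2B 332 ± 19.97 CPM with WM-1119 and 335 ± 89.2 CPM with DMSO. SENP6 had 529 ± 72.2 CPM with WM-1119 and 433 ± 139 CPM with DMSO, RREB1 359 ± 0.415 CPM with WM-1119 and 304 ± 94.1 CPM with DMSO, and CDKAL1 44.9 ± 5.49 CPM with WM-1119 and 52.6 ± 7.06 CPM with DMSO. Their log2 changes ran from -0.22 in CDKAL1 to 0.33 in SENP6, with limma adjusted p of 0.376 to 0.945. The difference between the internal and the end region of a gene was not tested. In SENP6, 12 of the 13 members within the gene had a log2 change below 0, and 9 of the 13 reached an unadjusted p under 0.05. In RREB1 these counts were 10 and 6 of 11, in PHF10 4 and 3 of 5, and in ELF1 4 and 2 of 6. They were 2 and 2 of 3 in RNASEH2B and 2 and 1 of 2 in CDKAL1. All these counts take in the called regions themselves. Over all members of chromosome 6, 54.4% were below 0, and 16.5% were lower and 5.83% higher at an unadjusted limma p under 0.05. On chromosome 13 those shares were 51.5%, 16.7% and 8.48%. Members inside genes had a median log2 change of -0.43 on chromosome 6 and -0.47 on chromosome 13.

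When a background was subtracted per library and chromosome, all 8 stayed lower and passed, with log2 changes of -3.77 to -0.98 and limma adjusted p of 3.4e-05 to 0.0113. Values below the background were set to a floor of no signal. LINC01837 fell to that floor in all WM-1119 libraries and the PHF10 region in WM-1119 replicate 1. The size of their changes in this setting, -3.77 and -3.02, therefore depends on the floor. The C6orf120 end region lay just above the background in WM-1119 replicate 1, so its change of -2.85 rests on a value near that floor. With DMSO replicates 1 and 2 left out, a setting in which the lone DMSO library is assumed to vary like the WM-1119 libraries, all 8 were lower, as non-overlapping groups require, with log2 changes of -1.93 to -0.50. LINC01837 alone of the 8 passed there. No member of the 8 passed without DMSO replicate 1 or without DMSO replicate 2, and the count of members was 903 without DMSO replicate 3 (574 lower and 329 higher), which is 37.8% of members, against 29.8% of comparison regions and 43.9% of all tested regions.

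Just short of the threshold was a region inside MYO16, a gene for an unconventional myosin (chr13:109130983-109132972), with 12.99, 20.3 and 22.7 CPM in WM-1119 libraries and 47.3, 37.7 and 34.4 CPM in DMSO libraries (limma adjusted p = 0.0532). On chromosome 19 the next smallest p were at an end region of CEACAM21, which encodes a carcinoembryonic antigen family member, with a log2 change of -0.71, and at an end of the ribosomal protein gene RPS19 that holds no start, with -1.23. Their limma adjusted p was 0.144 and 0.143. In the other direction no member passed. The smallest p among higher members were at SNX3 (0.54), EEF1A1 (0.46) and LEMD2 (0.52) on chromosome 6, STK24 (0.50), CCDC122 (0.50) and DLEU1 (0.44) on chromosome 13, and TSHZ3 (0.73), JUND (0.46) and MIDN (0.43) on chromosome 19, with the log2 change in brackets. Their limma adjusted p ran from 0.229 to 0.317. JUND, an AP-1 subunit, had 447, 394 and 355.0 CPM with WM-1119 and 257, 260.3 and 354.9 CPM with DMSO, so that DMSO replicate 3 all but met WM-1119 replicate 3.

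The strongest members did not move with WM-1119 past the threshold. On chromosome 6 they were the ends of PHIP, which encodes a bromodomain and WD repeat protein, BRD2, a BET reader of acetyl lysine, and MYB, a transcription factor that leukaemias with KMT2A fusions rely on. PHIP averaged 548 ± 51.3 CPM with WM-1119 and 522 ± 112 CPM with DMSO, and MYB 503 ± 99.5 CPM with WM-1119 and 482 ± 156 CPM with DMSO (SD, n = 3 each). On chromosome 13 they were DACH1, which encodes a transcriptional regulator of the dachshund family, at 613 ± 115 CPM with WM-1119 and 541 ± 47.0 CPM with DMSO, a region in the overlapping non-coding genes DLEU1 and DLEU2, and PAN3, which encodes part of a deadenylase. On chromosome 19 they were KLF16, a zinc finger factor gene, at 619 ± 94.6 CPM with WM-1119 and 529 ± 111 CPM with DMSO, ZC3H4, and a region shared by PLEKHG2 and ZFP36, which encodes a protein that destabilises AU-rich messages. The log2 changes of these 9 ran from 0.07 at PAN3 to 0.40 at ZC3H4, and their limma adjusted p from 0.321 to 0.817.

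Genes of known roles on these chromosomes, taken from 10 lists, gave 0 calls in either direction with limma, and edgeR on 5 libraries called 0 members. Calls were rare everywhere with limma, at 0.0603% lower and 0% higher over all tested regions. Each gene was read at its end region with the highest mean, and the median of all end members was 0.10, 0.13 and 0.06 on chromosomes 6, 13 and 19. Strength differed: all end members had a median of 77.4, 91.0 and 64.0 CPM, and the lists ran from 58.6 to 205 CPM. All members of at least 100 CPM had median changes of 0.18, 0.22 and 0.20. Of them 16.5%, 24.0% and 18.3% were higher at an unadjusted limma p under 0.05, and 1.30%, 1.04% and 0% lower. At 50 to 100 CPM 5.50%, 5.80% and 3.16% were higher. The list counts are a description beside these shares. On chromosome 6, 13 transcription factor genes of blood cells had a median log2 change of 0.19, with 0 lower and 1 higher at an unadjusted p under 0.05. Among them RREB1, E2F3 and NFYA had 0.28, 0.21 and 0.31. The 18 chromatin regulator genes of that chromosome had a median of 0.22 (1 lower, 1 higher), with ARID1B, a SWI/SNF subunit gene, at 0.27. The 15 regions of signalling, cell cycle and apoptosis genes had 0.19 (0 lower, 2 higher), and MAPK14, a stress-activated kinase gene, had 0.37.

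On chromosome 13, the 13 regions of transcription factor and tumour suppressor genes had a median of 0.20 (0 lower, 2 higher). RB1, the retinoblastoma gene that restrains cell cycle entry, had 248, 235 and 230.0 CPM with WM-1119 and 153, 169 and 216 CPM with DMSO (log2 change 0.42, limma adjusted p = 0.329). The groups did not overlap there, with DMSO replicate 3 nearest to the WM-1119 libraries. The 17 blood cell and signalling genes of chromosome 13 had a median of 0.04 (1 lower, 3 higher). FLT3, the receptor tyrosine kinase gene that is mutated in this line, had 234, 239 and 295 CPM with WM-1119 and 214, 233 and 397 CPM with DMSO (log2 change -0.09). DMSO replicate 3 was the highest library at FLT3, DMSO replicate 1 the lowest, and the groups overlapped.

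On chromosome 19 the medians were 0.24 for 18 blood transcription factor genes (0 lower, 3 higher), 0.22 for 18 chromatin regulator genes (0 lower, 2 higher) and 0.13 for 22 signalling, cell cycle and apoptosis genes (0 lower, 4 higher). They were 0.09 for 24 translation and protein folding genes (1 lower, 1 higher) and 0.07 for 19 granule, receptor and leukocyte genes (1 lower, 3 higher). CEBPA, which directs granulocyte differentiation, had 347, 466 and 455 CPM with WM-1119 and 275, 353 and 448 CPM with DMSO (log2 change 0.25). The neutrophil granule genes AZU1, PRTN3 and ELANE had log2 changes of 0.36, 0.40 and 0.36, with limma adjusted p of 0.356 to 0.440. The groups overlapped at all 3 genes, with DMSO replicate 3 inside the WM-1119 range at PRTN3 and ELANE and above it at AZU1.

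Large gene families of these chromosomes were also counted. The 37 end regions of histone genes on chromosome 6 had a median log2 change of -0.12 (6 lower and 0 higher at an unadjusted limma p under 0.05). Over all members of that chromosome 16.5% were lower and 5.83% higher, but many of the lower ones were weak. The histone regions had a median of 94.2 CPM, and among chromosome 6 members of 50 to 100 CPM 5.50% were lower. The 4 end regions of HLA genes had 0.56 (0 lower, 1 higher). The 110 of ZNF genes on chromosome 19 had -0.01 (3 lower, 4 higher), beside 9.90% lower and 4.996% higher over all members of that chromosome. With all 3 families left out, the other 2230 members held all 8 calls and had a median of -0.05.

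Members near the minimum show what the mean takes in. Just inside it on chromosome 13 lay a region in LINC00423 with a mean of 10.0 CPM, which had 4.62, 5.002 and 4.41 CPM with WM-1119 and 27.8, 15.4 and 2.81 CPM with DMSO. On chromosome 6 it was a region in NCOA7 with 6.16, 6.002 and 4.88 CPM with WM-1119 and 23.6, 16.9 and 2.41 CPM with DMSO. Both reached the minimum through DMSO replicates 1 and 2 and were lowest in DMSO replicate 3. On chromosome 19 an end region of ZNF846 had 15.2, 10.8 and 6.93 CPM with WM-1119 and 9.73, 10.0 and 7.35 CPM with DMSO. The regions just outside, near ZNF184 on chromosome 6, far from SUCLA2 on chromosome 13 and inside CEACAM21 on chromosome 19, averaged 9.99, 9.96 and 9.94 CPM.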

How the data were processed

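H3K9ac libraries of 3 WM-1119 and 3 DMSO samples were grouped by their titles. Per the submitters' processing notes the build was hg38 and the tools included MACS2, Bowtie2, bedtools and SAMtools; not given in the sources used here are their versions, their roles, the merging of regions and any removal of duplicates. The authors call the deposited values TPM, but they are CPM: each column sums to 1000000, and for regions of at most 100 reads 100% of the values were whole reads to within 0.02, whatever the width. For WM-1119 replicate 2 the value of 1 read lies so near a round number that it was left out of the count test. The design had assumed TPM, and CPM took the same test. Starts were taken as counted from 0, and 1 was added.

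limma 3.58.1 in R 4.3.3 (lmFit and eBayes, trend and robust on) took log2(CPM + 1) of the 44763 regions averaging 1 CPM or more, fitted treatment alone and adjusted by Benjamini-Hochberg; the scale understates changes of weak regions. The matched level used 4 classes of mean CPM (10 to 20, 20 to 50, 50 to 100, 100 and over), weighted by members. The members, chromosomes and gene lists were chosen with earlier results of these data known. The exact permutation tests planned for chromosome values, which cannot go below 0.1 with 3 against 3, are therefore not quoted. Levels at gene ends were added after the data had been seen.

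Genes came from the RefSeq table of GRCh38.p14; exon and intron positions were not used. Named members were those past the threshold, the 3 smallest p per chromosome and direction, the 3 highest means, those at the minimum, and up to 4 genes of each list; the text gives some of the list genes, chosen after their values were seen. Same-numbered libraries of the 2 groups deviated together (correlations of 0.46, 0.17 and 0.53), so the numbers pair the samples by that measure. Depth also rose with the replicate number in both groups, so a pairing cannot be told apart from the order of depth. The main fit stayed without the block, as designed, and the blocked count is given beside it. Every pair of libraries differed by more than sampling noise (the smallest chi-square per degree of freedom was 1.66). The level that 0 reads still allow was 0.236 CPM in WM-1119 replicate 3, the deepest library, and 4.17 CPM in DMSO replicate 1, the shallowest, counting error alone considered. On simulated data for the WM-1119 against DMSO comparison the limma fit was tested for recovery of known changes. Python 3.11.15 with numpy 2.4.6, pandas 2.3.3, matplotlib 3.10.9 and scipy 1.17.1 made tables and figures. Alternatives were other pseudocounts and filters, quantile normalization, median centring, a replicate block, array weights, no trend and robust, subtraction of a background per library and chromosome, other bins, percentiles and widths, leaving out each library or DMSO replicates 1 and 2, and edgeR 4.0.16 (quasi-likelihood test) on the recovered reads of 5 libraries.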

Additional observations from a re-analysis of the deposited data

How the results depend on the processing

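The count of 8 members past the threshold stayed 8 with pseudocounts of 0.1 and 5 and with no filter, and was 88 with a replicate block (3.68% of members, 1.92% of comparison regions). It was 0 when only regions averaging 10 CPM or more were tested, with quantile normalization, with median centring, limma without trend and robust, and edgeR on 5 libraries, which had 21 members lower and 28 higher at an unadjusted p under 0.05; beside the other counts of 0 there were 237 and 86, 240 and 64, 4 and 176, and 138 and 1, in that order. It was 22 with background subtracted, 5 with DMSO replicates 1 and 2 left out and 1703 with array weights. Leaving out each library in turn gave 0 to 903 members: 12, 2 and 4 without WM-1119 replicates 1, 2 and 3, and 0, 0 and 903 without DMSO replicates 1, 2 and 3; beside those counts of 0, 178 and 127 members were lower and 93 and 36 higher at an unadjusted p under 0.05. The log2 changes of the 8 kept their sign under all 18 alternatives run, and each passed in 8 to 10 of them. In many of these the sign could not turn. Their groups did not overlap, so leaving out libraries had to keep it. Other filters, the replicate block and limma without trend and robust left the log2 change itself unaltered. Their size shrank to -1.35 to -0.06 with median centring (ELF1 the smallest) and to -1.77 to -0.33 with edgeR on 5 libraries, against -2.12 to -0.83 as reported.

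The matched level difference of chromosomes 6 and 19 kept its sign under all alternatives run, from -0.24 to -0.01 and from -0.15 to -0.04. That of chromosome 13 turned to 0.00 with background subtracted (0.000731) and to 0.02 with DMSO replicates 1 and 2 left out (0.0179), and its share of signal, -0.05 percentage points, turned to 0.07 (0.0719) with background subtracted. The log2 background ratio of chromosome 6 (-0.15, WM-1119 minus DMSO) turned to 0.07 (0.0709) with DMSO replicates 1 and 2 left out; those of chromosomes 13 and 19 kept their sign. For these turns and for the counts above the cause was not tested. Leaving out each library in turn moved the matched level differences between -0.24 and -0.10 (chromosome 6), -0.25 and -0.10 (13) and -0.15 and -0.09 (19). The shallow DMSO libraries limit what can be said of weak members, since 1 read is worth 1.39 CPM in DMSO replicate 1.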
